A study of Mus musculus with 8 samples.

Results

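Ribosome biogenesis and nucleolar genes were followed in lymph node dendritic cells at rest and after an antibody against CD40. The genes were taken by symbol. They were every gene whose name begins with Nop, Utp or Rrp and a digit, every Polr1 gene, Imp3 and Imp4, and 17 further symbols, among them Ncl, Npm1, Dkc1, Gar1, Nhp2, Pes1, Bop1 and Myc. This gave 46 genes of the 10412 in the deposited table. The rule read no measured value. One listed symbol, Fbl, was not analysed here, and Utp18 (0 to 9 UMIs per library) was too low to be tested, which left 45 genes in the tests.

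RNA was counted by bulk MARS-seq, which tags the 3′ end of each captured polyadenylated molecule with a unique molecular identifier (UMI). All cells came from C57BL/6 chimeras aged 16 weeks, 8 weeks after the procedure that the labels abbreviate BMT. Popliteal nodes were taken, and cells were sorted by CD45, by the integrin CD11c and by MHC-II. The chimeras are labelled WT/WT (WT here) or ICAM-1/2 DKO/WT (DKO here), and each kind was untreated (resting) or had 10 µg of the aCD40 monoclonal antibody injected into the footpad (activated). There were 2 libraries in each of the 4 groups, and none is labelled as given a control antibody. The labels do not tell whether libraries of a group stem from different mice. The p-values therefore reflect library-to-library spread, which may be technical. The sources used here do not say how many host cells remained in each chimera.

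A ribosome is built in the nucleolus. RNA polymerase I transcribes the precursor of the large ribosomal RNAs, small nucleolar RNPs (snoRNPs) modify it, and separate sets of assembly factors cut, fold and export the small and the large subunit. Myc is a transcription factor known as a broad activator of these genes, and growing or dividing cells raise the pathway. In bulk RNA, fewer cells of a type and less RNA per cell cannot be told apart.

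Libraries held 401984 to 1294777 UMIs and 9801 to 10369 detected genes, and the depths of resting and activated libraries overlapped. Levels are given in CPM, UMI counts scaled by TMM to a common library size, where 3 UMIs correspond to 2.32 to 7.46 CPM. Icam1 was at 123 to 432 CPM in the WT libraries and 9.49 to 38.5 CPM in the DKO libraries, with a log2 difference (DKO minus WT) of -3.53 ± 0.21 (SE, edgeR adjusted p = 3.00e-13). Icam2 was at 66.5 to 219 CPM in WT and 93.1 to 230 CPM in DKO, with a log2 difference of 0.06 ± 0.19 (SE, edgeR adjusted p = 0.995). The labels give no position of the deletion, so this 3′ count is no check of Icam2. Of the markers of classical dendritic cells, Cd74 had 5331 to 17090 UMIs and H2-Ab1 3823 to 14872 UMIs per library, Itgax (CD11c) 11 to 43, and Zbtb46 and Xcr1 0 to 8 each. The label of the cells therefore rests on the sort, because the defining transcripts Zbtb46 and Xcr1 were near 0.

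The letters CACGTG are the core of the E-box that Myc and its partner Max recognise. They read the same on both strands. Of 38 genes of the set with a RefSeq window (GRCm38.p6) from 250 bases before to 50 bases after the start, 7 (18.4%, exact 95% interval 7.74 to 34.3) held CACGTG. Of 8038 genes of the table with a window, 973 (12.1%) did. With only the 250 bases before the start, the shares were 10.5% (4 of 38) and 10.1%. The 3 genes with the letters that rose on activation (Nop2, Pes1 and Mybbp1a) and 1 that did not pass the test (Imp4) are shown, chosen after their values were seen. They run 5′ to 3′ on the plus strand, with CACGTG in capitals. The windows lie at chr6:125131633-125131932 (Nop2), chr11:3963725-3964024 (Pes1), chr11:72441077-72441376 (Mybbp1a) and chr1:34439579-34439878 (Imp4), and the capitals begin at -60, 2, 40 and -121 from the start base.
Nop2: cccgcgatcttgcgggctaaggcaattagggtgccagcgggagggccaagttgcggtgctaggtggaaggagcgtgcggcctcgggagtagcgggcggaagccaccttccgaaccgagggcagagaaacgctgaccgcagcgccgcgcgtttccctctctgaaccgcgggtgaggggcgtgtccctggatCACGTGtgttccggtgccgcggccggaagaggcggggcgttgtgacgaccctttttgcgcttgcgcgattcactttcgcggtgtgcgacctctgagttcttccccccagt
Pes1: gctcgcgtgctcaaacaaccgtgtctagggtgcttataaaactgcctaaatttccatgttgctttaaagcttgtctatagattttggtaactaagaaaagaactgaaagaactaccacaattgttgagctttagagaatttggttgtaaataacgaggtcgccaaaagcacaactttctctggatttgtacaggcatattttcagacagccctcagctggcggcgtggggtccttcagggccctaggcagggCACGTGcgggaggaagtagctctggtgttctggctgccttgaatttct
Mybbp1a: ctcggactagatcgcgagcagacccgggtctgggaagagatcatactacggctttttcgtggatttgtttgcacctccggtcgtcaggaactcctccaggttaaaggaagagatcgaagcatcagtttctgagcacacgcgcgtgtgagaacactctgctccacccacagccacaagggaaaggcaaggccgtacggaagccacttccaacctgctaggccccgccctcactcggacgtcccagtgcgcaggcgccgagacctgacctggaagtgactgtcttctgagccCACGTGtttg
Imp4: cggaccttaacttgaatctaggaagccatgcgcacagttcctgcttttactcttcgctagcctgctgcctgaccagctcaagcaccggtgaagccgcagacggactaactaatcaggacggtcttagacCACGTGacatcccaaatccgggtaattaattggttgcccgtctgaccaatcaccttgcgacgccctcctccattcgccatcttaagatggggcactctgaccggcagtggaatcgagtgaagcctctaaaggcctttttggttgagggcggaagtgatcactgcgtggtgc
In Pes1 and Mybbp1a the letters lie after the start, and in Nop2 and Imp4 before it. Rrp7a, Utp18 and Utp20 hold them too. Of the 18 genes that rose and have a window 3 held the letters, against 4 of the other 20, which is a description of these windows and not of binding.

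The first question was how the set differed between activated and resting libraries. Of the 45 genes tested, 23 rose and 0 fell when the 2 genotypes were averaged (edgeR quasi-likelihood test, adjusted p under 0.05 over 8616 genes). At an unadjusted p under 0.05, 29 were higher and 0 lower, and DESeq2 called 18 higher and 0 lower. Among all genes tested 16.3% were called higher and 13.4% lower. At an unadjusted p under 0.05, 1790 of the 8616 were higher and 1647 lower in edgeR. The log2 difference (activated minus resting) of the set had a median of 0.57, with 42 genes above 0 and 3 below, against a median of -0.01 over all genes tested. Scaling by library totals without TMM moved the median of all genes to -0.22 and turned the calls over all genes from 1402 higher and 1154 lower to 908 higher and 1889 lower. On that scale the set had 17 genes higher and 0 lower, and its median lay 0.59 above that of all genes, as with TMM.

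The summed level of the 46 genes was 4148 and 4561 CPM in the WT resting libraries and 4551 and 4252 CPM in the DKO resting libraries. It was 7542 and 6783 CPM in the WT activated and 6437 and 6330 CPM in the DKO activated libraries. Every activated library was above every resting one, and the WT activated libraries were above the DKO activated ones. As a share of all UMIs the set took 0.452 to 0.479% at rest and 0.563 to 0.704% after activation. Without Ncl and Npm1 the sum was 3155 to 3661 CPM at rest and 4533 to 5418 CPM after activation.

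**Figure D1:**
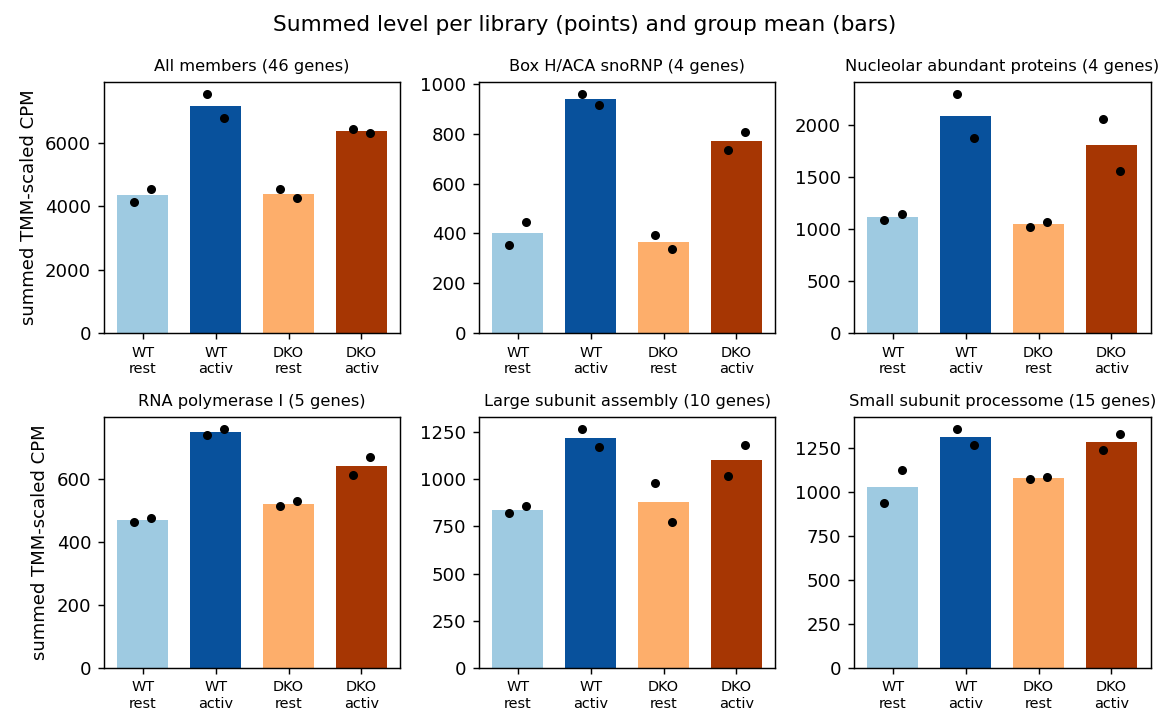
Summed TMM-scaled level (CPM) of the 46 genes and of 5 role groups in each of the 8 libraries, with the group mean as a bar. The H/ACA snoRNP genes sum to 337 to 445 CPM in the resting and 736 to 958 CPM in the activated libraries, while the small subunit processome genes go from 939 to 1125 CPM to 1237 to 1360 CPM.

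Gene by gene, 17 of the 45 (37.8%) had all 4 activated libraries above all 4 resting ones, and 0 had all 4 below. Over all genes tested these shares were 14.9% and 13%. The 17 were Dkc1, Gar1, Mybbp1a, Ncl, Nhp2, Nop10, Nop16, Nop2, Nop58, Npm1, Pes1, Polr1c, Polr1d, Polr1e, Rrp9, Utp11l and Utp20. Of these, Polr1d and Utp20 did not pass the edgeR test. The median log2 difference was highest in the H/ACA group (1.12) and lowest in the small subunit processome group (0.37), with no test between groups.

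**Figure D2:**
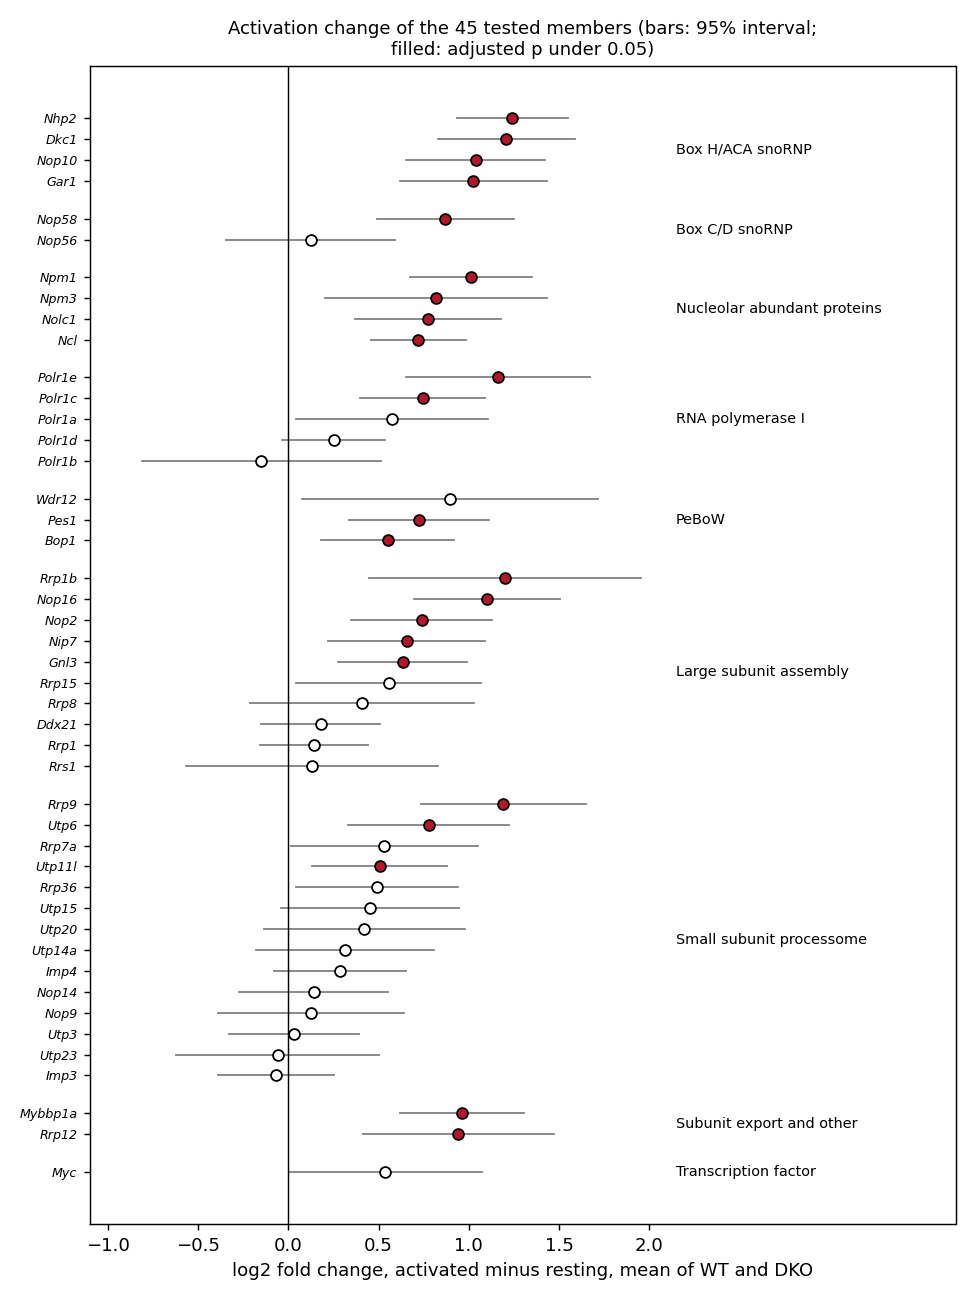
Log2 difference (activated minus resting, mean of both genotypes) of the 45 tested genes with 95% intervals, ordered by role and marked by whether they passed the edgeR test. All 4 H/ACA genes lie between 1.03 and 1.24, and the 14 small subunit processome genes spread from -0.07 to 1.19.

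The box H/ACA snoRNP, which turns chosen uridines of ribosomal RNA into pseudouridine, had 4 of 4 genes higher. Nhp2, a core protein that binds the guide RNA, was at 162 and 203 CPM in WT resting, 206 and 152 in DKO resting, 494 and 458 in WT activated, and 370 and 382 in DKO activated libraries. The lowest activated library was well above the highest resting one. The log2 difference of Nhp2 was 1.24 ± 0.15 (SE, edgeR adjusted p = 1.49e-07). Dkc1 (dyskerin), the pseudouridine synthase, was at 68.1 and 77.6 CPM in WT resting, 47.4 and 52.0 in DKO resting, 133 and 143 in WT activated, and 131 and 153 in DKO activated libraries. Activated libraries of both genotypes reached about the same level. The log2 difference of Dkc1 was 1.21 ± 0.19 (SE, adjusted p = 8.75e-06).

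Nop10, the small core protein that joins dyskerin to the RNA, was at 64.6 and 102 CPM in WT resting, 59.3 and 85.4 in DKO resting, 192 and 203 in WT activated, and 118 and 143 in DKO activated libraries. Resting and activated libraries of Nop10 did not overlap, and the WT activated libraries were the highest. The log2 difference of Nop10 was 1.04 ± 0.19 (SE, edgeR adjusted p = 8.61e-05). Gar1, the fourth core protein, was at 59.0 and 62.9 CPM in WT resting, 80.6 and 47.0 in DKO resting, 139 and 112 in WT activated, and 117 and 129 in DKO activated libraries. Its log2 difference was 1.03 ± 0.20 (SE, edgeR adjusted p = 2.10e-04), again with no overlap. All 4 calls held without any single library. On the opposite strand, exons of Dkc1 overlap Mpp1 and those of Nhp2 overlap Rmnd5b. Mpp1 and Rmnd5b had log2 differences of 0.22 and -0.39, and the sources used here do not say whether the counting used strand.

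**Figure D3:**
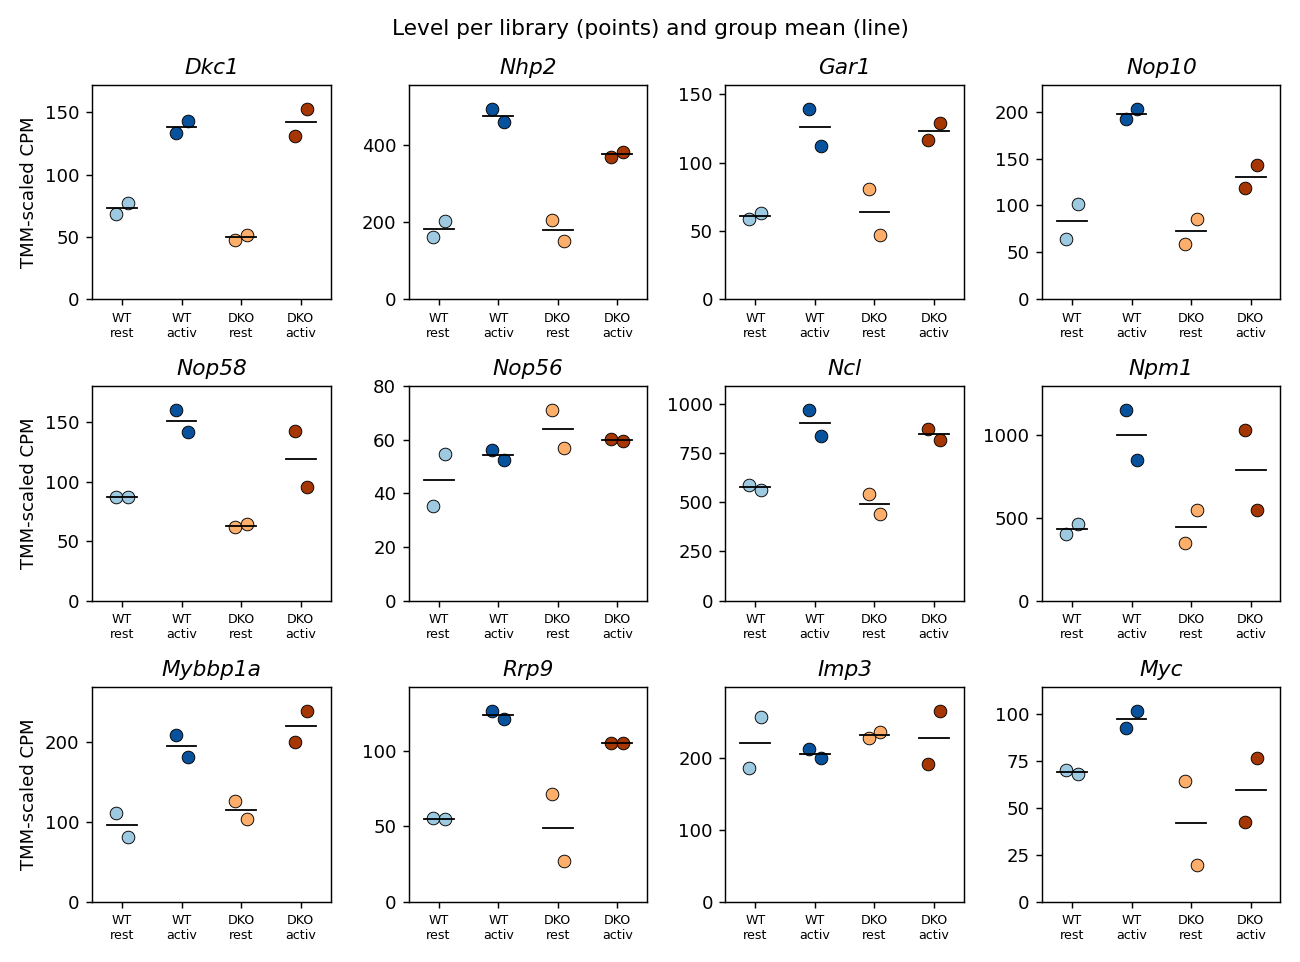
TMM-scaled level (CPM) of selected genes of the set in each of the 8 libraries, with the mean of each group as a line. Nhp2, Dkc1, Npm1 and Rrp9 are higher in every activated library than in every resting one, and Myc and Imp3 overlap between resting and activated libraries.

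The box C/D snoRNP adds methyl groups to ribose of ribosomal RNA. Of its core proteins in the set, Nop58 passed the test and Nop56 did not. A further core protein, Nhp2l1, from outside the naming rule, had a log2 difference of -0.12 ± 0.29 (SE, edgeR adjusted p = 0.796). Nop58 was at 87.1 and 87.0 CPM in WT resting, 61.7 and 64.4 in DKO resting, 160 and 142 in WT activated, and 143 and 95.4 in DKO activated libraries. Activated libraries of Nop58 did not overlap resting ones, and its log2 difference was 0.87 ± 0.19 (SE, edgeR adjusted p = 5.89e-04). Nop56 was at 35.1 and 54.9 CPM in WT resting, 71.1 and 56.9 in DKO resting, 56.0 and 52.6 in WT activated, and 60.4 and 59.7 in DKO activated libraries. Its log2 difference of 0.12 ± 0.23 (SE, edgeR adjusted p = 0.737) has a 95% interval from -0.35 to 0.59, and the groups overlap. It was -0.085 with library totals only and -0.060 without WT resting 1. The 3′ end of Nop56 has near-identical copies elsewhere in the transcript annotation and its exons overlap Idh3b on the other strand, so its counts are uncertain.

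In the role group listed as abundant nucleolar proteins, 4 of 4 genes were called higher, with no test of the group. The transcript of Npm3 was low, at 8 to 58 UMIs per library. Npm1 (nucleophosmin), a chaperone of ribosomal proteins and histones, was at 405 and 466 CPM in WT resting, 349 and 547 in DKO resting, 1154 and 848 in WT activated, and 1031 and 551 in DKO activated libraries. The lowest activated library, DKO activated 2, was only just above the highest resting one. Npm1 rose by a log2 difference of 1.01 ± 0.17 (SE, edgeR adjusted p = 2.14e-05). Ncl (nucleolin), which binds precursor RNA and ribosomal DNA chromatin, was at 588 and 565 CPM in WT resting, 541 and 441 in DKO resting, 970 and 839 in WT activated, and 874 and 816 in DKO activated libraries. The log2 difference of Ncl was 0.72 ± 0.13 (SE, edgeR adjusted p = 7.55e-05), with little spread within groups.

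Nolc1, a chaperone of snoRNPs, was at 67.4 and 61.5 CPM in WT resting, 116 and 61.9 in DKO resting, 138 and 116 in WT activated, and 117 and 141 in DKO activated libraries. DKO resting 1 lay just above WT activated 2, so resting and activated libraries of Nolc1 overlapped slightly. The log2 difference was 0.78 ± 0.20 (SE, edgeR adjusted p = 0.00339). Npm3, a relative of Npm1, was at 26.7 and 49.5 CPM in WT resting, 19.0 and 19.8 in DKO resting, 35.2 and 70.9 in WT activated, and 36.0 and 50.1 in DKO activated libraries. Resting and activated WT libraries of Npm3 overlapped. Its log2 difference of 0.82 ± 0.30 (SE, edgeR adjusted p = 0.0386) was the weakest call of this group. It was lost without WT resting 1 (adjusted p = 0.214), DKO resting 1 (0.0842), DKO resting 2 (0.109), WT activated 2 (0.297, log2 difference 0.52) or DKO activated 2 (0.124), and in DESeq2 (0.130).

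Of the RNA polymerase I genes, 2 of 5 rose. Polr1e, a subunit found in polymerase I alone, was at 40.7 and 25.4 CPM in WT resting, 42.7 and 24.8 in DKO resting, 83.4 and 89.2 in WT activated, and 75.8 and 47.7 in DKO activated libraries. For Polr1e, resting and activated libraries did not overlap, and the log2 difference was 1.16 ± 0.25 (SE, edgeR adjusted p = 6.26e-04). Polr1c, a subunit shared with RNA polymerase III, was at 133 and 159 CPM in WT resting, 97.2 and 166 in DKO resting, 254 and 252 in WT activated, and 189 and 255 in DKO activated libraries. Polr1c rose by a log2 difference of 0.74 ± 0.17 (SE, edgeR adjusted p = 0.00117). Polr1d, which pairs with Polr1c, was at 243 to 289 CPM at rest and 290 to 330 CPM after activation. The ranges of Polr1d only just separated, and its log2 difference of 0.25 ± 0.14 (SE, edgeR adjusted p = 0.182) did not pass the test.

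The 2 largest subunits, which form the catalytic core, did not pass the test either. Polr1a was at 24.6 and 25.4 CPM in WT resting, 30.8 and 38.4 in DKO resting, 48.2 and 46.5 in WT activated, and 43.7 and 38.2 in DKO activated libraries. For Polr1a the log2 difference was 0.57 ± 0.26 (SE, edgeR adjusted p = 0.0966), with the WT activated libraries the highest. Polr1b was at 20.4 and 24.1 CPM in WT resting, 54.5 and 24.8 in DKO resting, 32.6 and 41.6 in WT activated, and 15.4 and 21.5 in DKO activated libraries. In WT both activated libraries were above both resting ones, and in DKO both were below. These values rest on 9 to 34 UMIs per library, and the 3′ end of Polr1b has a near-identical copy elsewhere. Its log2 difference over both genotypes was -0.15 ± 0.33 (SE, edgeR adjusted p = 0.770), and 0.12 without DKO resting 1.

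Pes1, Bop1 and Wdr12 form the PeBoW complex, which acts in maturation of the large subunit RNA. Pes1 was at 68.1 and 72.2 CPM in WT resting, 87.7 and 79.2 in DKO resting, 149 and 100 in WT activated, and 117 and 141 in DKO activated libraries. All activated libraries of Pes1 were above all resting ones, and its log2 difference was 0.72 ± 0.19 (SE, edgeR adjusted p = 0.00405). The call of Pes1 was lost without WT activated 1, at a log2 difference of 0.57. Bop1 was at 87.1 and 116 CPM in WT resting, 80.6 and 86.6 in DKO resting, 156 and 130 in WT activated, and 139 and 112 in DKO activated libraries. DKO activated 2 lay just below WT resting 2. Bop1 rose by a log2 difference of 0.55 ± 0.18 (SE, edgeR adjusted p = 0.0203). The call of Bop1 was lost without WT resting 1 (adjusted p = 0.144), DKO resting 1 (0.0505), WT activated 1 (0.102) or DKO activated 1 (0.0983), and in DESeq2 (0.0693). Wdr12 had 5 to 24 UMIs per library. It was at 7.03 and 13.4 CPM in WT resting, 16.6 and 14.9 in DKO resting, 31.3 and 23.2 in WT activated, and 24.4 and 11.9 in DKO activated libraries. Its log2 difference of 0.90 ± 0.40 (SE, edgeR adjusted p = 0.0932) did not pass the test and was 0.56 without DKO activated 1. Its 3′ end has a near-identical copy in Pms1.

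Among 10 further factors of large subunit assembly, 5 rose and the other 5 did not pass the test. Nop16, a nucleolar factor of the early large subunit particle, was at 50.6 and 57.5 CPM in WT resting, 49.8 and 55.7 in DKO resting, 130 and 110 in WT activated, and 98.9 and 124 in DKO activated libraries. Resting values of Nop16 stayed within a narrow range in both genotypes, and its log2 difference was 1.10 ± 0.20 (SE, edgeR adjusted p = 7.72e-05). Nop2, a methyltransferase of the large subunit RNA whose promoter window is printed above, was at 56.2 to 73.5 CPM at rest and 85.9 to 123 CPM after activation. Its log2 difference was 0.74 ± 0.19 (SE, edgeR adjusted p = 0.00393).

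Rrp1b, a nucleolar relative of the yeast assembly factor Rrp1, was at 20.4 and 12.04 CPM in WT resting, 9.49 and 8.66 in DKO resting, 40.4 and 33.0 in WT activated, and 24.4 and 19.1 in DKO activated libraries. Within each genotype the libraries did not overlap, but these are 4 to 31 UMIs. Its log2 difference was 1.20 ± 0.37 (SE, edgeR adjusted p = 0.0138). The call of Rrp1b was lost without WT resting 2 (adjusted p = 0.0583), DKO resting 2 (0.0553), WT activated 1 (0.0598) or DKO activated 1 (0.0701), and in DESeq2 (0.0561). Gnl3 (nucleostemin, a GTP-binding nucleolar protein) had a log2 difference of 0.63 ± 0.18 (SE, edgeR adjusted p = 0.00629), with 0.0645 without DKO resting 2. Nip7 had 0.66 ± 0.21 (SE, edgeR adjusted p = 0.0199), which was lost without WT resting 1 (0.163), DKO resting 2 (0.120), WT activated 1 (0.0982) or DKO activated 2 (0.0914). Ddx21, an RNA helicase, was at 146 to 206 CPM at rest and 163 to 205 CPM after activation, and its log2 difference was 0.18 ± 0.16 (SE, edgeR adjusted p = 0.437).

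The small subunit processome is the large particle that assembles on the nascent precursor RNA. It had 3 of 14 tested genes higher, the lowest share of calls among the groups named here with more than 1 gene. Over all genes tested 16.3% were called higher, and with 14 genes the processome share was not far above that. Rrp9, a protein of the U3 snoRNP, was at 55.5 and 54.9 CPM in WT resting, 71.1 and 27.2 in DKO resting, 126 and 121 in WT activated, and 105 and 105 in DKO activated libraries. Its log2 difference was 1.19 ± 0.22 (SE, edgeR adjusted p = 1.31e-04), and the activated libraries lay close together. The exons of Rrp9 overlap those of Parp3 on the other strand, whose log2 difference was 0.26. Utp6 had a log2 difference of 0.78 ± 0.22 (SE, edgeR adjusted p = 0.00712), with an adjusted p of 0.0544 without WT activated 1. Utp11l (Utp11 in GENCODE) had 0.51 ± 0.18 (SE, edgeR adjusted p = 0.0363), and its call was lost in 7 of the 8 fits that left out a library, with adjusted p-values up to 0.219. Only the fit without WT activated 2 kept the call of Utp11l.

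The other 11 tested genes of the processome had log2 differences from -0.07 to 0.53. Imp3, a protein of the U3 snoRNP, was at 185 and 257 CPM in WT resting, 228 and 236 in DKO resting, 212 and 199 in WT activated, and 191 and 265 in DKO activated libraries. The groups overlapped, and the log2 difference of -0.07 ± 0.16 (SE, edgeR adjusted p = 0.788) had a 95% interval from -0.39 to 0.25. Utp3 was at 94.9 to 173 CPM at rest and 127 to 147 CPM after activation, with a log2 difference of 0.03 ± 0.18 (SE, edgeR adjusted p = 0.917). Utp20 had all 4 activated libraries (34.7 to 43.0 CPM) above all 4 resting ones (23.7 to 33.4 CPM), and a log2 difference of 0.42 ± 0.27 (SE, edgeR adjusted p = 0.260).

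Mybbp1a, a nucleolar protein that binds Myb, was at 112 and 81.6 CPM in WT resting, 126 and 104 in DKO resting, 209 and 181 in WT activated, and 200 and 239 in DKO activated libraries. Between resting and activated libraries of Mybbp1a there was no overlap, and its log2 difference was 0.96 ± 0.17 (SE, edgeR adjusted p = 5.19e-05). Its exons overlap Spns2 on the other strand, which had 71 UMIs over all libraries against 921 for Mybbp1a. Rrp12, known from yeast as a factor of subunit export, was at 20.4 and 21.4 CPM in WT resting, 54.5 and 29.7 in DKO resting, 67.8 and 59.9 in WT activated, and 48.8 and 47.7 in DKO activated libraries. In WT the groups were far apart, and in DKO they overlapped. The log2 difference of Rrp12 over both genotypes was 0.94 ± 0.26 (SE, edgeR adjusted p = 0.00611), and 0.71 (0.0528) without DKO resting 2.

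Myc was at 70.3 and 68.2 CPM in WT resting, 64.0 and 19.8 in DKO resting, 92.5 and 101 in WT activated, and 42.4 and 76.4 in DKO activated libraries. Both WT activated libraries were above both WT resting ones, and the DKO libraries overlapped. Its log2 difference on activation was 0.54 ± 0.26 (SE, edgeR adjusted p = 0.124) and did not pass the test. It passed without DKO resting 1 (0.97, edgeR adjusted p = 0.00835), without both libraries of lowest depth (0.77, 0.0333) and in limma-voom (0.64, 0.0475), and was 0.14 (edgeR adjusted p = 0.720) without DKO resting 2. Leaving Myc out of the set left 23 called of 44 tested genes.

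Taken by genotype, 18 of 45 genes rose in WT (edgeR) and 9 rose in DKO, and 0 fell in either. Over all genes tested, 8.44% were called higher and 5.92% lower in WT, and 9.02% higher and 6.33% lower in DKO. At an unadjusted p under 0.05, 27 were higher and 0 lower in WT, and 17 were higher and 1 (Polr1b) lower in DKO. Over all 8616 genes these counts were 1337 and 1105 in WT, and 1369 and 1133 in DKO. The 9 genes called in DKO, which were Dkc1, Gar1, Mybbp1a, Ncl, Nhp2, Nop16, Nop58, Npm1 and Rrp9, were all called in WT too. Over all genes tested, 777 were called higher in DKO, and 460 of these were called higher in WT too. Median log2 differences of the set were 0.75 in WT and 0.49 in DKO. With 2 libraries per group these counts depend on single libraries. The WT count was 5 without WT resting 1, 11 without WT resting 2, 6 without WT activated 1 and 10 without WT activated 2. The DKO count was 5 without DKO resting 2 (4 higher and Polr1b lower, at a log2 difference of -1.62 and adjusted p = 0.0468) and 5 without DKO activated 2. Nhp2 and Npm1 in WT, and Dkc1 and Nhp2 in DKO, were called without any single library.

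Nhp2 rose by a log2 difference of 1.39 ± 0.21 in WT (SE, edgeR adjusted p = 1.34e-05) and 1.09 ± 0.22 in DKO (adjusted p = 6.73e-04). Dkc1 rose by 0.93 ± 0.25 in WT (SE, edgeR adjusted p = 0.00893) and 1.49 ± 0.28 in DKO (adjusted p = 3.60e-04). For Npm1 the values were 1.20 ± 0.23 in WT and 0.82 ± 0.24 in DKO (SE, edgeR adjusted p = 4.49e-04 and 0.0170). The DKO value of Npm1 fell to 0.28 (adjusted p = 0.524) without DKO activated 1 and to 0.52 (0.255) without DKO resting 1. The authors' deposited table calls 16 of 45 genes higher and 0 lower in WT (over all genes with an adjusted p, 7.04% higher and 3.94% lower), and 6 higher and 0 lower in DKO (6.34% and 4.29%). The 6 in the authors' deposited table are Dkc1, Mybbp1a, Ncl, Nhp2, Nop16 and Rrp9.

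**Figure D4:**
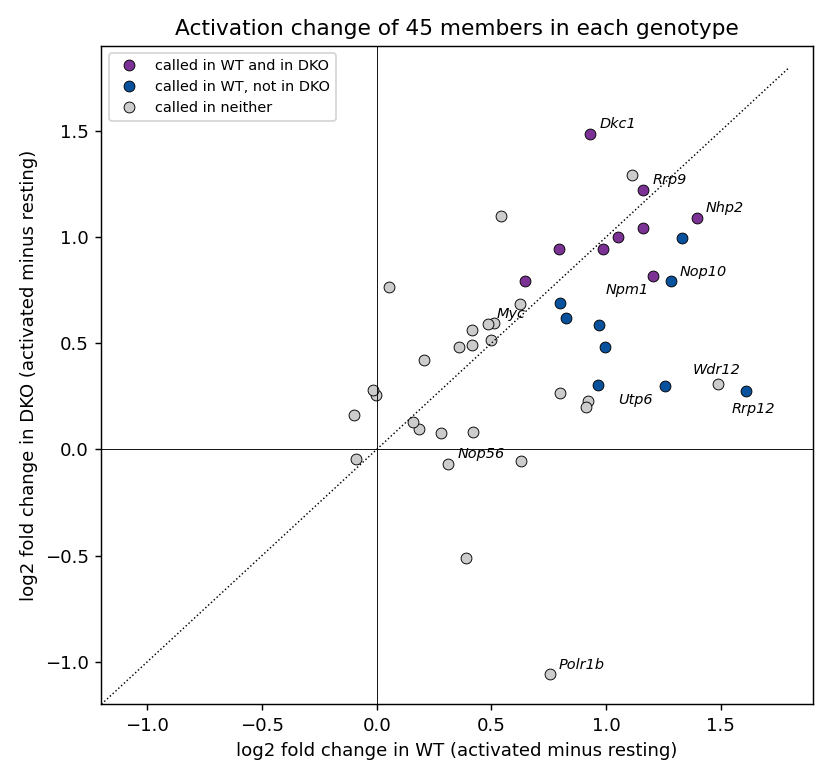
Log2 difference (activated minus resting) of the 45 tested genes in WT (horizontal axis) and DKO (vertical axis), coloured by the genotypes in which edgeR called them, with the line of equal change. The 2 contrasts use separate libraries, most genes lie above 0 on both axes, and Polr1b, at 0.75 in WT and -1.06 in DKO, stands below the others. The sign was the same in both genotypes for 38 of the 45 genes, and for 6502 of the 8616 over all genes tested.

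The test of the difference itself, DKO activation minus WT activation, called 0 of the 45 genes in edgeR and 0 in DESeq2. At an unadjusted p under 0.05, edgeR had 3 genes, all with a DKO value below the WT value, and DESeq2 had 2. Over all 8616 genes 0% were called, and 397 had an unadjusted p under 0.05 in edgeR (236 with DKO above WT, 161 below). The 3 were Polr1b (-1.81 ± 0.65, SE), Rrp12 (-1.33 ± 0.52) and Utp6 (-0.96 ± 0.44), each with an edgeR adjusted p of 0.997. The 95% interval for Polr1b, not adjusted for the number of genes, ran from -3.13 to -0.49. Both Polr1b and Rrp12 depended on the DKO resting libraries. Without DKO resting 1 their values were -1.24 and -0.93, and without DKO resting 2 they were -2.36 and -1.78. Polr1b was above 0 in WT and below 0 in DKO, and Rrp12 and Utp6 were above 0 in both.

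Between genotypes, 0 of the 45 genes passed the edgeR test at rest, after activation or over both, and DESeq2 also called 0 in each. At an unadjusted p under 0.05, edgeR had 3, 4 and 4 genes and DESeq2 1, 0 and 1. Over all 8616 genes edgeR had 448, 424 and 487 at that threshold. The background over all genes was 0.058%, 0.139% and 0.139% called higher in DKO, and 0.104%, 0.0348% and 0.0696% called lower. In the authors' deposited table, too, 0 genes of the set are called between genotypes, with 0.149% of all genes higher and 0.0135% lower after activation, and 0.0192% and 0.0288% at rest. Of the set, Myc had the smallest adjusted p over both states, with a log2 difference (DKO minus WT) of -0.83 ± 0.26 (SE, edgeR adjusted p = 0.404). At rest DKO resting 2 was far below WT, at 19.8 CPM, and DKO resting 1 was near WT, at 64.0 CPM. Without DKO resting 1 the value was -1.28 (edgeR adjusted p = 0.0380), and without both libraries of lowest depth, DKO resting 1 and DKO activated 2, it was -1.48 (0.0115). Without DKO resting 2 it was -0.45 and did not reach an unadjusted p of 0.05.

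Factors of ribosome assembly outside the naming rule were counted in the same way. In a list of 134 such symbols, 126 were in the table and 125 were tested. Of these 20 rose and 5 fell on activation (edgeR), with a median log2 difference of 0.24, beside 16.3% higher and 13.4% lower over all genes. The share called higher is near that background. By sign, 95 of the 125 lay above 0 and 30 below, against 4235 and 4381 over all genes tested. At an unadjusted p under 0.05 in edgeR, 32 were higher and 6 lower, beside 1790 and 1647 of the 8616. DESeq2 called 14 higher and 1 lower. With library totals only the counts were 8 higher and 9 lower, beside 10.5% and 21.9% over all genes. Those named first by size were Rpf2 (1.11 ± 0.25, SE), which brings the 5S particle to the large subunit, Tsr1 (1.11 ± 0.22), Pno1 (1.08 ± 0.19) and Bysl (1.01 ± 0.24), which act on the small subunit, the exosome partner C1d (1.09 ± 0.40), and Cd3eap (1.05 ± 0.25), a subunit of RNA polymerase I. Their edgeR adjusted p-values ran from 5.58e-05 for Pno1 to 0.0406 for C1d. The polymerase I subunits Znrd1 (0.23 ± 0.20, SE, edgeR adjusted p = 0.416) and Twistnb (0.14 ± 0.26, SE, edgeR adjusted p = 0.745), also on the list, did not pass the test. The 5 that fell were Isg20l2 (-0.89 ± 0.28, SE), Gnl3l (-0.88 ± 0.33), Kri1 (-0.51 ± 0.16), and Taf1b (-0.73 ± 0.28) and Taf1c (-0.74 ± 0.24). Taf1b and Taf1c belong to the selectivity factor that places RNA polymerase I on its promoter, and their edgeR adjusted p-values were 0.04999 and 0.0197. Of the same factor, Taf1a (-0.34 ± 0.30, SE, edgeR adjusted p = 0.433) and Taf1d (0.17 ± 0.28, SE, edgeR adjusted p = 0.713) did not pass the test.

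Other transcripts moved with the same contrast. Of the 11 tested markers of cycling cells 10 rose, and their summed level was 199 to 334 CPM at rest and 561 to 787 CPM after activation, with Mki67, Ccnb1, Cdk1 and Rrm2 at 0 in at least 1 resting library. All 8 tested markers of monocytes and macrophages rose, and their sum was 1086 to 1548 CPM at rest, 3347 to 4098 CPM in WT activated and 8163 to 10792 CPM in DKO activated libraries. Adgre1, a defining macrophage marker, had 0 to 8 UMIs. Lyz2 had the most UMIs of these markers, with 2108 and 1677 in the WT activated and 5041 and 3292 in the DKO activated libraries. Of the 8 tested T cell markers 6 fell, with sums of 1125 to 2155 CPM at rest and 849 to 1340 CPM after activation. B cell markers had 3 of 8 higher and 3 lower, with sums of 7172 to 8824 and 6488 to 8059 CPM. Classical dendritic cell markers had 1 of 7 higher and 2 lower, with sums of 22911 to 27654 and 23462 to 24213 CPM. Plasma cell markers had 1 of 6 higher and 3 lower (661 to 872 and 508 to 766 CPM), and natural killer cell markers 2 of 6 higher and 0 lower (149 to 211 and 200 to 367 CPM). The part of these cells in the rise of the ribosome biogenesis genes was not tested.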

How the data were processed

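Polyadenylated RNA of sorted lymph node dendritic cells was measured by bulk MARS-seq in 8 libraries, 2 in each of 4 groups set by the labels. The submitters' processing notes name TopHat2, HTSeq, DESeq2, cutadapt 1.8.3 and bcl2fastq 2.17.1.14, and the build mm10. No annotation, strand setting or UMI collapsing rule is given there or in the labels. UMI counts per gene, as deposited by the authors, entered every test. For 4 comparisons the authors' own log2 fold changes and p-values (adjusted) were deposited, and they are quoted only as theirs. A further 16 per-sample columns, normalized or transformed by the authors, were not used.

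Counts were fitted with edgeR 4.0.16 (R 4.3.3): filterByExpr, TMM, a coefficient per group over all 8 libraries, the quasi-likelihood F test and Benjamini-Hochberg adjustment over 8616 genes, called under 0.05. The SE is the log2 difference over the square root of F. The fit was tested on simulated data. DESeq2 1.42.0, limma 3.58.1 (voom), other scalings and filters, and fits leaving out libraries were alternatives. Near-identical 3′ ends (at least 95% over at least 100 of the last 200 bases) were found with blastn 2.17.0 in GENCODE transcripts, and promoters come from RefSeq. Chi-square per degree of freedom between libraries of a group was 2.33 to 2.86, and each counted as 1 sample. Depth was 401984 to 1294777 UMIs, and floors cover counting error only.

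The genes and lists were chosen with earlier results of these data known. Named were Myc, all genes of 5 role groups, the 12 largest called changes with the same sign in both genotypes, calls lower or between genotypes, the 3 largest interactions, and the 6 largest calls each way of the other list. Further genes (Imp3, Utp3, Utp6, Utp11l, Utp20, Gnl3, Nip7, Nop2, Ddx21, Imp4, Nhp2l1, Taf1a, Taf1d, Znrd1 and Twistnb) were named after their values were seen.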

Additional observations from a re-analysis of the deposited data

How the results depend on the processing

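Of the 23 genes called on activation over both genotypes, 14 were called under all 15 alternatives (Dkc1, Gar1, Mybbp1a, Ncl, Nhp2, Nolc1, Nop10, Nop16, Nop2, Nop58, Npm1, Polr1c, Polr1e and Rrp9), and the count ran from 17 to 25. The count leaving out 1 library ran from 5 to 19 in WT and from 5 to 9 in DKO. Between genotypes over both states it ran from 0 to 1, and was 1 (Myc) without both libraries of lowest depth, an alternative chosen after seeing the data. In DESeq2 15 genes of the other assembly factors were called, against 25 in edgeR. Directions turned only for values that had not passed the test. With library totals only, Nop56 was at -0.085 over both genotypes and Polr1d at -0.10 in DKO. Without both libraries of lowest depth, Polr1b was at 0.027 over both genotypes and Nop56 at 0.069 in DKO. Leaving out 1 library, over both genotypes Nop56 ran from -0.060 to 0.26 and Polr1b from -0.44 to 0.12. In WT, Nop56 ran from -0.029 to 0.61 and Npm3 from -0.063 to 0.98. In DKO, Myc ran from -0.20 to 1.48, Nop56 from -0.26 to 0.049, Rrp12 from -0.19 to 0.67 and Wdr12 from -0.38 to 0.65. The cause was not tested. Wdr12, Rrp1b and Polr1b had the few UMIs given above. No paired analysis was possible because neither the labels nor the columns carry replicate numbers that pair libraries across groups.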

Other observations

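The related letters CACGCG were searched on both strands, and a gene counted if any of its promoter windows held them. They were found for 14 of the 38 ribosome biogenesis genes with a window (36.8%, exact 95% interval 21.8 to 54.0). Over the 8038 genes of the table with a window the share was 20.7%. With only the 250 bases before the start the shares were 18.4% and 16.9%. These are values of the sequence alone.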
